A study of Mus musculus with 16 samples.

Results

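The 10 genes described here are secreted antagonists of Wnt signalling (*Sfrp1*, *Sfrp2*, *Sfrp5*, *Dkk1*, *Dkk2*, *Dkk3* and *Wif1*) and target or feedback genes of the pathway (*Lef1*, *Axin2* and *Nkd1*). They were chosen by name out of 19338 genes, with the entry of highest mean count kept for each symbol, and all 10 had an adjusted p in each of the 3 deposited comparisons. Nuclear RNA was sequenced from mouse embryonic stem cells (ESCs) in 16 libraries, 4 per group. PRC1-null cells were Ring1a-/-;Ring1bfl/fl ESCs kept for 72 h in 800 nM of 4-hydroxytamoxifen, here TAM, which deletes *Rnf2* (*Ring1b*), the remaining catalytic subunit of Polycomb repressive complex 1 (PRC1). PRC2-null cells were untreated Eed-/-;Ring1a-/-;Ring1bfl/fl ESCs, a single CRISPR clone (B4) that lacks EED, a core subunit of Polycomb repressive complex 2 (PRC2). PRC1/2-null cells were the same Eed-/- clone given the same TAM treatment. Control cells were untreated Ring1a-/-;Ring1bfl/fl ESCs, so that every group, the control included, lacks RING1 (*Ring1a*). No group was given TAM without a floxed *Rnf2*, and loss of EED cannot be told apart from other features of the clone.

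Wnt ligands bind Frizzled receptors and the co-receptors LRP5 and LRP6, which stabilises β-catenin and lets it act with TCF/LEF factors on target genes. SFRP proteins and WIF1 bind the ligands outside the cell, while DKK1 and DKK2 bind the co-receptors. AXIN2 and NKD1 are induced by the pathway and dampen it inside the cell, and LEF1 is both a DNA-binding partner of β-catenin and, in many tissues, a target. In mouse ESCs Wnt signalling supports self-renewal, and Polycomb complexes hold many developmental genes at CpG-rich promoters at low transcription.

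Promoter windows from RefSeq (GRCm38.p6, the mm10 assembly, 250 bases before to 50 after a start site) were found for 8 of the 10 genes, with none for *Sfrp1* and *Dkk3*. CpG dinucleotides numbered 31 in the 300 bases of the *Axin2* window and 25 in that of *Wif1*, against a median of 7 over 32851 windows. The window of *Sfrp2* held 22, that of *Sfrp5* 15, that of *Dkk2* 11 and that of *Dkk1* 9. *Lef1* has 4 windows, with 18, 21, 8 and 5, of which the last 2 lie inside the annotated gene and not at its first base. The window of *Nkd1* held 6 and also lies inside its gene. The bases before the start of *Axin2* (chr11:108920099-108920348, plus strand) and *Wif1* (chr10:121033754-121033959, plus strand, up to the first base of the annotated gene) are shown because these genes had the 2 most CpG-rich windows and were the 2 whose change with TAM was called different between the lines below. The *Axin2* and *Wif1* windows held more CpGs than 89.4% and 81.6% of all windows. Whether CpG count goes with the difference between the lines was not tested. Capitals mark the 24 CpGs of the *Axin2* stretch and the 17 of the *Wif1* stretch.
Axin2: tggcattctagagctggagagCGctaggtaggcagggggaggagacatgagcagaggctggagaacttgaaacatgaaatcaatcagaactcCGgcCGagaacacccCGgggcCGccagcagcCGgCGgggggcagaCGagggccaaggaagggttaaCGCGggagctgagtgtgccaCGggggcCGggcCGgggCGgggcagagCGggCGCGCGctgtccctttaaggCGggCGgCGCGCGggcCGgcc
Wif1: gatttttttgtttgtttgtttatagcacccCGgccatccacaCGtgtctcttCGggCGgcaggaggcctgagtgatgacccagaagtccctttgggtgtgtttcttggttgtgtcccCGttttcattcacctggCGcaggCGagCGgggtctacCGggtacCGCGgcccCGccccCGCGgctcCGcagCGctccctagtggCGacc

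Letters of sites that TCF/LEF factors bind were searched on both strands of the same windows. The word CTTTGAA was found in the *Dkk1* window alone among the 8 genes, at position -117 from the start site, and in 5.14% of all windows. The shorter word CTTTGT was found at position -98 in *Dkk1*, at position -80 in *Dkk2* and, on the opposite strand, at position -146 in the *Lef1* window with 5 CpGs, inside the gene, and in 18.7% of all windows. The third word, CTTTGAT, was in no window of these genes and in 3.73% of all windows. The *Dkk1* site (chr19:30549589-30549613, minus strand, read in the direction of the gene) is shown because it holds 2 of the words, which the capitals mark. It lies before the RefSeq start site at 30549496 but inside the gene as GENCODE annotates it, which starts at 30549665.
Dkk1: CTTTGAAatcccatcccggCTTTGT

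The labels were checked first. *Eed* had log2 fold changes against control of -1.89 (DESeq2 adjusted p = 2.8e-99) in PRC2-null cells, -2.10 (3.82e-122) in PRC1/2-null cells and 0.03 in PRC1-null cells. *Rnf2* had -0.41 with PRC1 lost, -0.26 with PRC2 lost and -0.50 with both lost, under 2-fold in each, so that its RNA summed over the gene does not show which libraries had TAM. *Ring1*, deleted in every group, had a mean normalized count of 19.0 over all libraries, and gave -1.13 with PRC1 lost (adjusted p = 0.0333), -0.49 with PRC2 lost (adjusted p = 0.338) and -0.74 with both lost (adjusted p = 0.121). All 19 pluripotency genes found in the tables were detected, and their summed implied mean was 89248 in PRC1-null, 62118 in PRC2-null, 27002 in PRC1/2-null and 119772 in control cells. Of these 19 genes 3, 7 and 17 were called lower in the same order. Of 18 primitive endoderm markers 4 of 16 tested were called higher in PRC1-null cells, 14 of 18 in PRC2-null cells and 12 of 18 in PRC1/2-null cells, and 1 was called lower in PRC1/2-null cells. Trophoblast markers were called higher for 7, 10 and 10 of 12, mesendoderm markers for 8 of 9, 5 of 10 and 7 of 10, and fibroblast and feeder markers for 8 of 14, 9 of 18 and 8 of 18. Of the fibroblast and feeder markers 0, 1 and 3 were called lower, and their summed implied mean was 31457 in PRC1-null, 15617 in PRC2-null, 9808 in PRC1/2-null and 43557 in control cells. Most of this sum was *Fn1*, at 29640 in PRC1-null, 12322 in PRC2-null, 6049 in PRC1/2-null and 42602 in control cells. The sum therefore follows *Fn1* and not the markers called higher. In these bulk nuclei, fewer cells of a type and less RNA per cell cannot be told apart.

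More of the 10 genes were called higher than lower in each null group. Called means a DESeq2 adjusted p under 0.05 and a change of more than 2-fold on the moderated log2 scale, the thresholds of the study. In PRC1-null cells 5 of the 10 genes rose (*Sfrp5*, *Dkk2*, *Wif1*, *Axin2* and *Nkd1*), where 11.2% of all entries tested were called higher, and none fell, where 1.13% were called lower. In PRC2-null cells 4 rose (*Dkk1*, *Dkk2*, *Wif1* and *Axin2*), where 15.6% of all entries were called higher, and none fell, where 5.3% were called lower. In PRC1/2-null cells 7 rose (those 4 with *Sfrp5*, *Dkk3* and *Nkd1*), where 21.8% of all entries were called higher, and *Sfrp1* fell, where 10.4% were called lower. The 1 gene that fell is close to that last share. The median log2 fold change of the 7 secreted antagonists was 0.89 with PRC1 lost, 0.87 with PRC2 lost and 1.79 with both lost, and that of the 3 target and feedback genes was 1.61, 0.79 and 2.19. Over all entries tested the medians were -0.04, 0.05 and 0.06. The 3 comparisons use the same control libraries.

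By the adjusted p alone, with no fold threshold, 6 of the 10 genes were higher in PRC1-null cells, 7 in PRC2-null cells and 7 in PRC1/2-null cells. The shares of all entries were 18.5%, 29.4% and 34.4%. *Sfrp1* was the 1 gene lower by this rule in each group, where 15.9%, 25.9% and 31% of all entries were lower. The genes added by it were *Sfrp2* in PRC1-null cells and *Sfrp5*, *Dkk3* and *Nkd1* in PRC2-null cells.

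**Figure D1:**
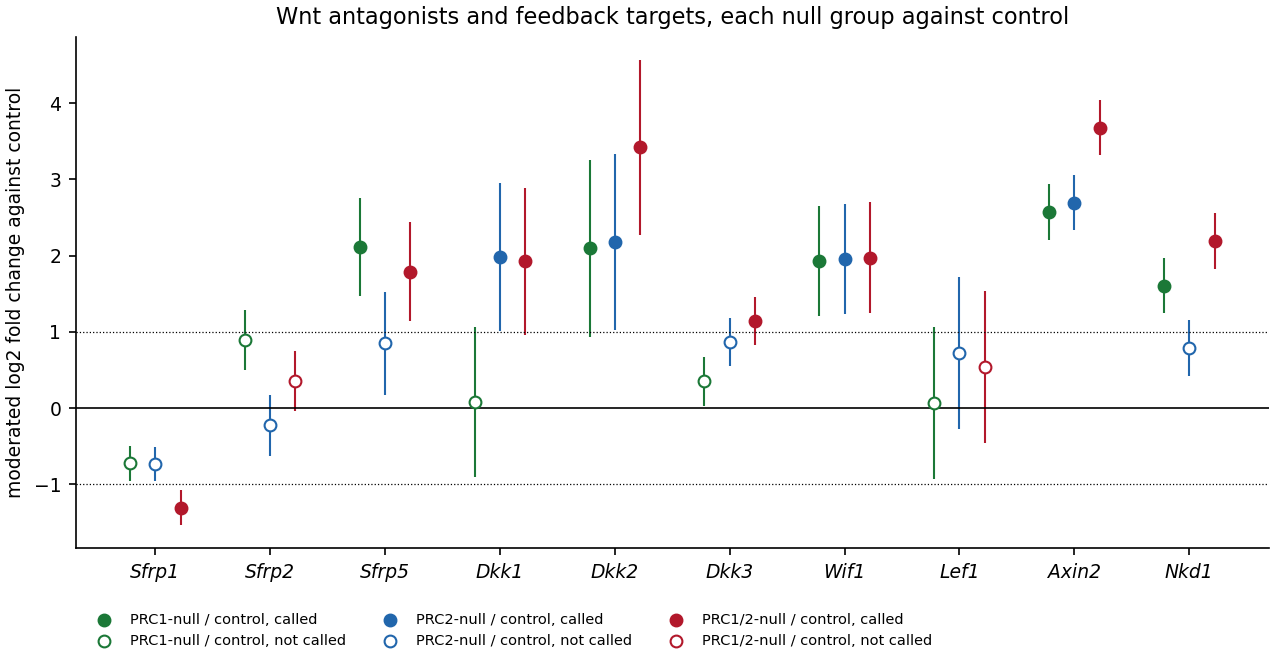
Moderated log2 fold change of each gene against control, with PRC1-null, then PRC2-null, then PRC1/2-null cells from left to right within a gene, and 95% intervals (4 libraries per group). Filled points are called and open points are not, dotted lines mark a 2-fold change, and *Sfrp1* is the only gene below 0 in all 3 comparisons.

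Values of single libraries are not in the deposited tables. Group means were therefore implied from the mean normalized count over all 16 libraries and the unshrunken fold changes, and they carry no error of their own. They can be compared between groups of 1 gene, not between genes, since they are not scaled to gene length. Sums over a list are likewise compared between groups only, and genes with high counts weigh most in them. The errors of the fold changes, written after ±, are the standard errors (SE) of the deposited fit. They rest on the spread between replicate libraries as DESeq2 estimated it for each gene, not on that of 1 group alone. The 4 libraries of a group are biological replicates by the study's methods.

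*Sfrp1*, which encodes a secreted Frizzled-related protein, was the only antagonist of the 10 genes to fall. It lies on chromosome 8 from 23411502 to 23449632, and its implied mean was 1915 in PRC1-null, 1902 in PRC2-null, 1274 in PRC1/2-null and 3168 in control cells. All 3 null groups were below the control, and the group without either complex was the lowest. The log2 fold change was -1.30 ± 0.12 (SE, adjusted p = 5.31e-28) in PRC1/2-null cells, a level of 0.405 times that of the control. Loss of PRC1 alone gave -0.72 (adjusted p = 8.21e-09) and loss of PRC2 alone -0.73 (adjusted p = 1.75e-09), each with a standard error of 0.12 and under 2-fold.

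*Sfrp2*, a close relative of *Sfrp1*, had its highest value where PRC1 alone was lost. On chromosome 3 from 83766321 to 83774316, it had implied means of 308 in PRC1-null, 139 in PRC2-null, 211 in PRC1/2-null and 164 in control cells. The log2 fold change was 0.89 ± 0.20 (SE, adjusted p = 7.13e-05) in PRC1-null cells, below the 2-fold threshold. It was -0.22 (95% interval -0.63 to 0.18, adjusted p = 0.368) in PRC2-null cells and 0.36 (-0.04 to 0.75, adjusted p = 0.113) in PRC1/2-null cells. An antisense gene, *Gm26771*, overlaps *Sfrp2*, and use of strand in the counting is not given in the sources used here.

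*Sfrp5*, the third SFRP gene of the set and an antagonist known from foregut endoderm, rose in both TAM-treated groups. It lies on chromosome 19 from 42197971 to 42202252 and had implied means of 44.6 in PRC1-null, 17.7 in PRC2-null, 35.2 in PRC1/2-null and 9.18 in control cells. The log2 fold change was 2.12 ± 0.33 (SE, adjusted p = 1.54e-09) in PRC1-null and 1.79 ± 0.33 (SE, adjusted p = 1.62e-07) in PRC1/2-null cells. In PRC2-null cells it was 0.85 ± 0.34 (SE, adjusted p = 0.0256), under 2-fold.

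*Dkk1*, whose product blocks the co-receptors LRP5 and LRP6, rose in the 2 groups that lack EED. Its locus spans 30545863 to 30549665 of chromosome 19, and its implied mean was 27.3 in PRC1-null, 135 in PRC2-null, 128 in PRC1/2-null and 25.3 in control cells. The log2 fold change was 1.99 ± 0.49 (SE, adjusted p = 0.000172) in PRC2-null and 1.92 ± 0.49 (SE, adjusted p = 0.000213) in PRC1/2-null cells. With PRC1 alone lost it was 0.08, with a 95% interval from -0.90 to 1.06 that spans a change of about 2-fold either way. Its standard error was above that of 99.0% of the 723 entries with a mean count within 1.2 times its own, which had a median standard error of 0.24 in PRC1/2-null cells. The summed implied mean of the 18 primitive endoderm markers moved with it, at 64297 in PRC1-null, 266005 in PRC2-null, 190487 in PRC1/2-null and 52860 in control cells, and their part in the result was not tested. None of these markers had a mean of 0.

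*Dkk2* is a relative of *Dkk1* that can also act on the co-receptors. Among the 7 secreted antagonists of the set it had the highest moderated fold change in PRC1/2-null cells, over a control level near 0. Its locus is on chromosome 3 from 132085292 to 132180304, and its implied mean was 8.84 in PRC1-null, 9.50 in PRC2-null, 27.2 in PRC1/2-null and 0.517 in control cells. The log2 fold changes were 2.10 ± 0.59 (SE, adjusted p = 0.00203), 2.18 ± 0.59 (SE, adjusted p = 0.000606) and 3.42 ± 0.58 (SE, adjusted p = 1.42e-08) in that order of null groups. In PRC1/2-null cells the standard error was above that of 98% of the 450 entries with a mean count within 1.2 times its own, where the median was 0.48. The unshrunken values were 4.10 with PRC1 lost and 5.72 with both lost. At so low a control level the size of the change rests on the moderation, while the direction and the calls do not differ between the forms.

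*Dkk3*, a divergent member of the family, changed least among the genes called in PRC1/2-null cells. Found on chromosome 7 from 112116017 to 112159057, it had implied means of 244 in PRC1-null, 350 in PRC2-null, 423 in PRC1/2-null and 190 in control cells. It passed 2-fold with both complexes lost only, with a log2 value of 1.14 (adjusted p = 4.19e-12). Loss of PRC2 alone gave 0.87 (adjusted p = 2.56e-07) and loss of PRC1 alone 0.35 (adjusted p = 0.0776), and the standard error was 0.16 in each.

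*Wif1*, which encodes a secreted protein that binds Wnt ligands, rose by nearly the same amount in all 3 null groups. The gene spans 121033960 to 121100650 of chromosome 10, and its implied mean was 29.4 in PRC1-null, 29.9 in PRC2-null, 30.3 in PRC1/2-null and 6.55 in control cells. The log2 fold changes were 1.93 ± 0.37 (SE, adjusted p = 2.05e-06), 1.95 ± 0.37 (SE, adjusted p = 5.18e-07) and 1.97 ± 0.37 (SE, adjusted p = 2.59e-07) in that order. The difference between any pair of null groups was at most 0.04 on the log2 scale, with intervals that reach about 1 to either side (the widest upper bound was 1.07).

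**Figure D2:**
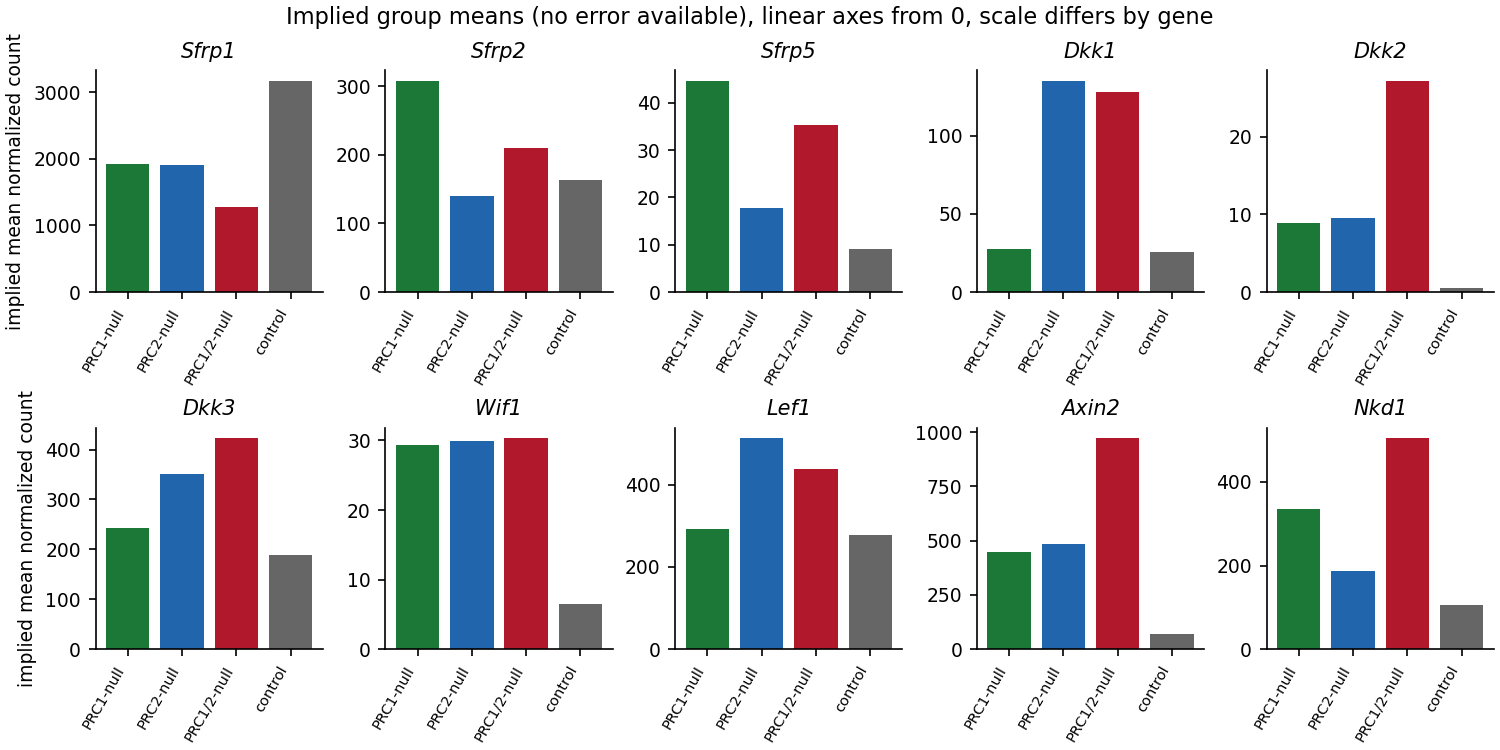
Implied mean normalized count of each gene in the 3 null groups and, at the right, in control cells, on linear axes that start at 0 and differ by gene, with no error bars because the tables hold no values per library. *Wif1* is level over the 3 null groups (29.4, 29.9 and 30.3), *Axin2* is highest in PRC1/2-null cells (972), and *Sfrp1* is highest in control cells (3168).

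Among the target and feedback genes, *Axin2*, a scaffold of the β-catenin destruction complex that Wnt signalling induces, had the highest fold change of the 10 genes on the moderated scale. It lies on chromosome 11 from 108920349 to 108950783, and its implied mean was 447 in PRC1-null, 486 in PRC2-null, 972 in PRC1/2-null and 71.8 in control cells. Loss of either complex thus went with similar levels, and loss of both with a level about 2 times as high. The log2 fold change was 2.57 ± 0.19 (SE, adjusted p = 4.28e-41) in PRC1-null, 2.69 ± 0.19 (SE, adjusted p = 9.98e-46) in PRC2-null and 3.68 ± 0.18 (SE, adjusted p = 2.86e-86) in PRC1/2-null cells, the last a 12.8-fold rise. Chromosome 11 as a whole was shifted: over its entries with a mean count of at least 100, the median exceeded that of all other chromosomes by 0.48 (log2) with PRC2 lost, by 0.52 with both lost and by 0.01 with PRC1 lost. With these shifts taken off, the log2 fold change of *Axin2* was 2.56 with PRC1 lost, 2.22 with PRC2 lost and 3.16 with both lost, all still called. An antisense gene, *Gm11670*, overlaps *Axin2*.

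*Nkd1*, which encodes a cytoplasmic antagonist that binds Dishevelled proteins, rose most where *Rnf2* was deleted. It lies on chromosome 8 from 88521354 to 88594884, and its implied mean was 334 in PRC1-null, 187 in PRC2-null, 505 in PRC1/2-null and 107 in control cells. The log2 fold change was 1.61 ± 0.19 (SE, adjusted p = 2.18e-16) in PRC1-null and 2.19 ± 0.19 (SE, adjusted p = 2.48e-31) in PRC1/2-null cells. In PRC2-null cells it was 0.79 ± 0.19 (SE, adjusted p = 9.02e-05), under 2-fold. A second entry of the gene, which may count the same reads, gave 1.59 with PRC1 lost, 0.74 with PRC2 lost and 2.16 with both lost.

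*Lef1* was not called in any comparison, and its interval was too wide to place it. It lies on chromosome 3 from 131110471 to 131224356, and its implied mean was 293 in PRC1-null, 513 in PRC2-null, 438 in PRC1/2-null and 277 in control cells. The log2 fold changes were 0.06 (95% interval -0.93 to 1.06, adjusted p = 0.942), 0.72 (-0.27 to 1.72, adjusted p = 0.225) and 0.54 (-0.46 to 1.53, adjusted p = 0.36) in that order. The standard error of 0.51 exceeded that of 99.8% of the 1335 entries with a mean count within 1.2 times its own, where the median was 0.14. Each of the 3 intervals holds both no change and a 2-fold rise. A second entry gave 0.07 with PRC1 lost, 0.72 with PRC2 lost and 0.52 with both lost, and an antisense gene, *Gm43352*, overlaps the locus.

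**Figure D3:**
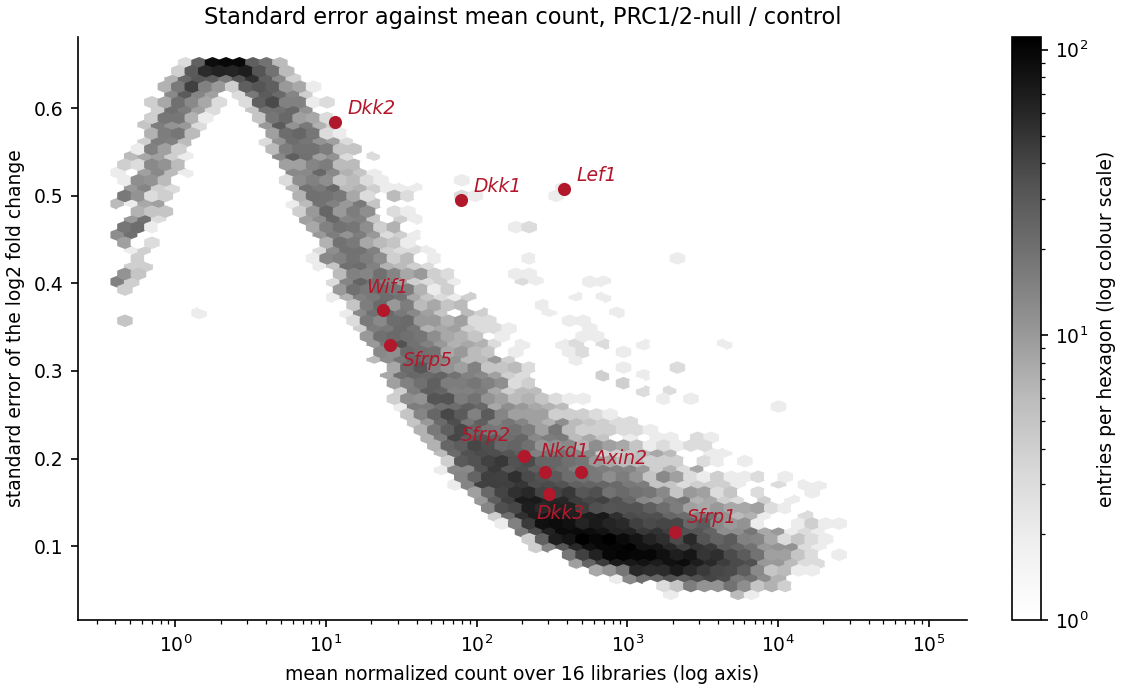
Standard error of the moderated log2 fold change (PRC1/2-null against control) against the mean normalized count on a log axis, with all entries tested as hexagons shaded by number and the 10 genes as red points. *Lef1*, *Dkk1* and *Dkk2* have standard errors above those of 99.8%, 99.0% and 98% of the entries of like mean count, while *Sfrp5* and *Wif1* lie within the bulk.

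The null groups were next compared with each other through the differences of their log2 fold changes, with a two-sided Wald test adjusted by Benjamini-Hochberg over all entries. Called here means an adjusted p under 0.05 and a difference over 1 on the log2 scale. PRC1/2-null and PRC2-null cells share the Eed-/- clone and differ in TAM. Between them 1 of the 10 genes was called, close to the share of all entries (7.4%). *Nkd1* was higher in PRC1/2-null cells by 1.40 ± 0.26 (SE, adjusted p = 4.74e-06). *Axin2* was higher by 0.98 ± 0.26 (SE, adjusted p = 0.00211), just under the threshold on size, and *Sfrp1* was lower, with a difference of -0.57 ± 0.16 (SE, adjusted p = 0.00487).

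PRC1/2-null and PRC1-null cells were both given TAM and differ in the line. Between them 2 genes were called, where 18.2% of all entries were. *Dkk1* was higher in PRC1/2-null cells by 1.84 ± 0.70 (SE, adjusted p = 0.023) and *Axin2* by 1.10 ± 0.26 (SE, adjusted p = 0.00013). With the shift of chromosome 11 taken off, the *Axin2* difference was 0.60 (adjusted p = 0.0507) and was no longer called. *Dkk3* was higher by 0.78 (adjusted p = 0.00214) and *Sfrp1* lower, with a difference of -0.58 (adjusted p = 0.00152), both under the threshold on size.

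PRC2-null cells differed from PRC1-null cells in 3 of the 10 genes, where 10.9% of all entries were called. *Dkk1* was higher in PRC2-null cells by 1.91 ± 0.70 (SE, adjusted p = 0.0266). *Sfrp2* was lower, with a difference of -1.11 ± 0.29 (SE, adjusted p = 0.000831), and so was *Sfrp5*, with -1.27 ± 0.47 (SE, adjusted p = 0.0291). *Nkd1* had a difference of -0.82 ± 0.27 (SE, adjusted p = 0.00994). *Axin2* differed by 0.12 (95% interval -0.40 to 0.64, or -0.34 with the shift of chromosome 11 taken off) and *Sfrp1* by -0.01 (95% interval -0.33 to 0.31), so that for these a difference of 2-fold lies outside the interval.

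The change with TAM could also be compared between the lines. Additive changes on the log2 scale would give the same change in Eed-/- cells (PRC1/2-null minus PRC2-null) as in cells with *Eed* (PRC1-null against control). The difference of these changes was called for 2 of the 10 genes, where 4.83% of all entries were called. The change of *Axin2* with TAM was 0.98 in Eed-/- cells and 2.57 in cells with *Eed*, a difference of -1.59 ± 0.32 (SE, adjusted p = 4.83e-05). With the shift of chromosome 11 taken off, this difference was -1.61. The change of *Wif1* was 0.02 in Eed-/- cells and 1.93 in cells with *Eed*, a difference of -1.91 ± 0.64 (SE, adjusted p = 0.0386). *Sfrp5* had a difference of -1.18 (95% interval -2.31 to -0.05, adjusted p = 0.24). For *Sfrp1* (0.15, 95% interval -0.25 to 0.54), *Dkk3* (-0.09, -0.63 to 0.46) and *Nkd1* (-0.21, -0.84 to 0.43) the interval left out a difference of 1, and for *Dkk1*, *Dkk2* and *Lef1* it did not. *Sfrp2* had -0.31, with an interval that just reached a difference of that size.

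**Figure D4:**
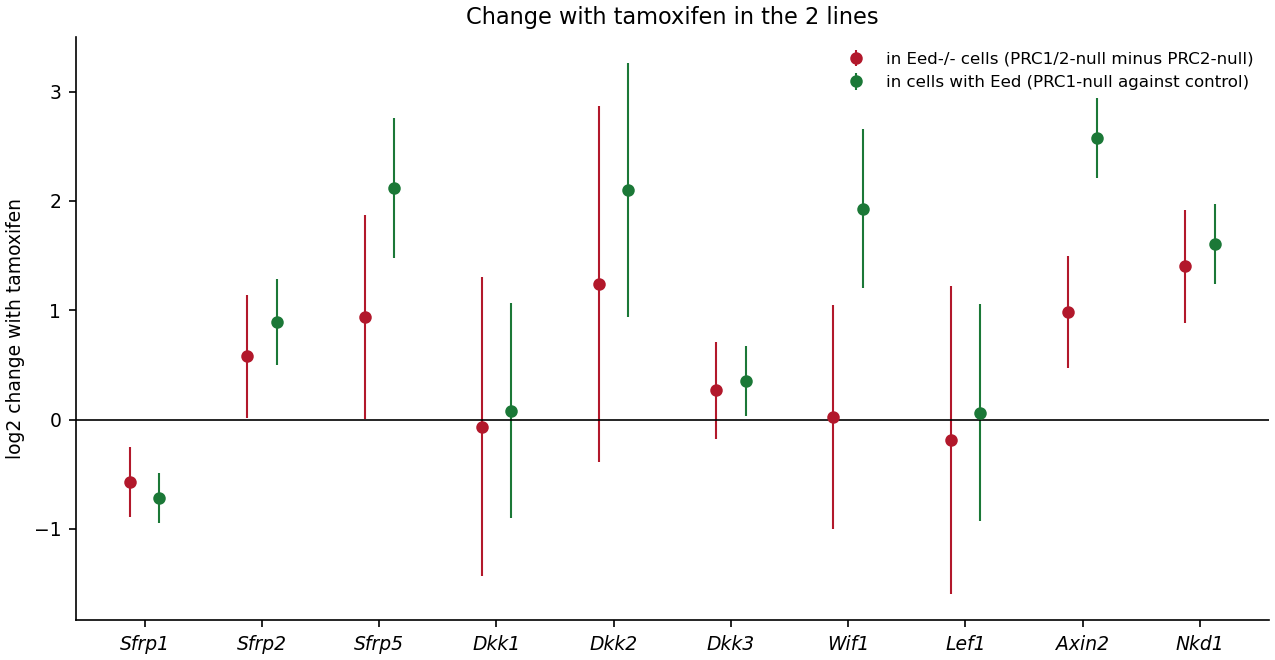
Log2 change with TAM in Eed-/- cells (PRC1/2-null minus PRC2-null, red, left) and in cells with *Eed* (PRC1-null against control, green, right) for each gene, with 95% intervals. The pairs of *Axin2* (0.98 and 2.57) and *Wif1* (0.02 and 1.93) stand apart, and those of *Sfrp1*, *Dkk3* and *Nkd1* lie close together.

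Other genes of the pathway were counted by lists written from textbook knowledge, but with earlier results of these data known. The counts below therefore describe these lists and are no independent test. In PRC1-null cells 33 of the 85 tested genes of the 6 lists were called higher and 1 lower, in PRC2-null cells 25 of 86 higher and 5 lower, and in PRC1/2-null cells 41 of 86 higher and 7 lower. The shares of all entries called higher were 11.2%, 15.6% and 21.8%, and those called lower 1.13%, 5.3% and 10.4%. Of 16 further antagonists, secreted, at the membrane or inside the cell, 5 were called higher with PRC1 lost, 4 with PRC2 lost and 9 with both lost, with medians of 0.73, 0.64 and 1.33, and *Sfrp4* fell in PRC1/2-null cells (-2.33, adjusted p = 3.32e-11). *Trabd2b*, whose product is a protease that inactivates Wnt ligands, had log2 fold changes of 2.18 with PRC1 lost, 2.36 with PRC2 lost and 4.05 with both lost. *Kremen1*, a receptor through which DKK1 removes LRP6 from the cell surface, rose in PRC1/2-null cells, at 1.61 (adjusted p = 1.59e-38), and was not called at 0.15 in PRC1-null and 0.60 in PRC2-null cells.

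Most Wnt ligands were called higher. Of 18 Wnt genes tested in PRC1-null cells 14 rose, of 19 in PRC2-null cells 11 rose and 1 fell, and of 19 in PRC1/2-null cells 15 rose, with medians of 1.47, 1.39 and 2.60. *Wnt4* had log2 fold changes of 1.78, 2.93 and 4.32 and *Wnt11* 1.47, 2.63 and 3.18 in that order. R-spondins, secreted proteins that strengthen Wnt signalling, rose for 4, 3 and 4 of the 4 genes. *Rspo2* had 2.22, 2.58 and 3.02. *Rspo1* had 1.00 in PRC1-null and 2.28 in PRC1/2-null cells, and 0.54 (adjusted p = 0.0538) in PRC2-null cells.

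Receptors moved both ways and the transducers inside the cell were mostly not called. Of 18 receptors 4 rose and 1 fell in PRC1-null, 3 rose and 3 fell in PRC2-null, and 6 rose and 3 fell in PRC1/2-null cells. The 3 that rose in PRC2-null cells are close to the share of all entries (15.6%). *Fzd5*, a Frizzled receptor, fell in each, with -1.09, -1.56 and -2.84, and *Ror2*, a receptor for WNT5A, had -0.15, -1.44 and -1.61, the first not called. Of 19 transducers 1 rose and none fell in PRC1-null cells, and 2 rose and 1 fell in PRC2-null cells. In PRC1/2-null cells 2 rose and 3 fell. The transducers that rose were below the shares of all entries called higher (11.2%, 15.6% and 21.8%) in each group. For receptors and transducers that fell, the shares of all entries called lower were 1.13%, 5.3% and 10.4%. *Wls*, which carries Wnt ligands to the cell surface, had 1.39, 1.42 and 2.37, and *Bcl9l*, a co-activator of β-catenin, 0.64, 1.49 and 2.34, of which the first was under 2-fold.

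Of 10 further target genes tested, 5 rose with PRC1 lost, 2 with PRC2 lost and 5 with both lost, and none fell. The 2 with PRC2 lost are close to the share of all entries (15.6%). *Cdx2* had log2 fold changes of 2.15, 3.16 and 4.93, and *T* (brachyury) 2.91, 1.76 and 3.06. Both are lineage regulators as well, and 6 of the 11 genes on this list are also on the mesendoderm or trophoblast list. The median of this list was 0.86 with PRC1 lost, -0.02 with PRC2 lost and 0.90 with both lost.

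**Figure D5:**
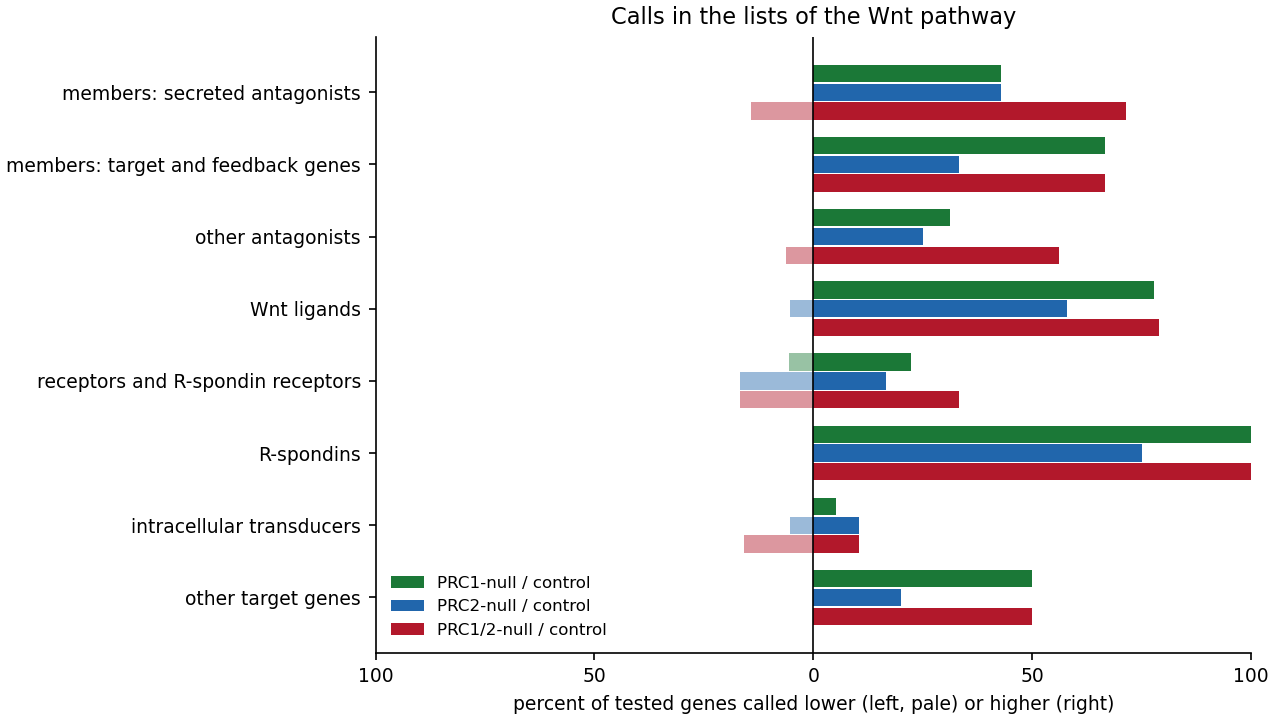
Percent of the tested genes of each list called higher (right of 0) or lower (left of 0, pale) in each null group against control. All 4 R-spondins were called higher in PRC1-null and PRC1/2-null cells, and 1 of 19 intracellular transducers was called in PRC1-null cells.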

How the data were processed

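Nuclei of ESCs were used for rRNA-depleted, directional, paired-end libraries. Per the study's methods, the authors filtered rRNA reads through Bowtie 2, mapped the rest to mm10 with STAR, discarded duplicates with SAMtools and compared groups with DESeq2. The deposited signal is the mean normalized count over 16 libraries, the same in the 3 tables. The deposited log2 fold changes are moderated toward 0, or unshrunken where so named. The deposited score is the Wald statistic, which was checked to be the ratio of the moderated value to its standard error. The p-values deposited by the authors come from this statistic, and Benjamini-Hochberg adjustment of them returned the deposited adjusted p. Because no values per library were used here, the deposited comparisons themselves are the data, depth per library is unknown, and no counting interval or floor is given. The mean counts sum to 18542200.

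Entries without an adjusted p (with means of at most 1.80 for PRC1-null and 0.416 for the rest) were not tested. Symbols were matched for 20560 of 20633 entries, 20450 by RefSeq and 110 by GENCODE, whose mm10 coordinates are given. The implied means rest on 1 fit over 4 groups of equal size. For differences the squared standard errors were added, a variance that is too large where the control is in common. Beside the 10 genes, the text names *Eed*, *Rnf2*, *Ring1* and, from each pathway list, the 2 called genes with the smallest adjusted p in PRC1/2-null cells. *Sfrp4*, *Fn1* and the genes of the closing observations were named after their values were seen. Genes and lists were chosen with earlier results of these data known. Alternatives changed the fold and p thresholds, the minimum mean count (10 or 100), the scaling, the chromosome shift and the variance. Scripts ran in Python 3.11.15 (scipy 1.17.1, pandas 2.3.3, numpy 2.4.6) and drew figures in matplotlib 3.10.9.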

Additional observations from a re-analysis of the deposited data

Results flagged for a closer look

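The change with TAM differed between Eed-/- cells and cells with *Eed* for 2 of the 10 genes, by a test of the difference itself. For *Axin2* the change in Eed-/- cells minus that in cells with *Eed* was -1.59 ± 0.32 (SE, two-sided Wald test with Benjamini-Hochberg adjusted p = 4.83e-05). For *Wif1* it was -1.91 ± 0.64 (SE, adjusted p = 0.0386). On the unshrunken scale the values were -1.64 and -2.14, with -2.58 for *Dkk2* and -1.29 for *Sfrp5*, neither of which was called on the moderated scale.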

How the results depend on the processing

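No paired analysis was possible because the tables hold no values per library, and for the same reason no library could be left out. Of 572 values of single genes under the alternatives, 542 kept their direction and side of the threshold. With no fold threshold the counts were 1 lower in PRC1-null, 7 higher and 1 lower in PRC2-null, 3 for PRC1/2-null minus PRC2-null and 4 for PRC1/2-null minus PRC1-null. Over 1.5-fold, the first 4 were 1, 7, 1 and 2. Under an adjusted p of 0.01, PRC1/2-null minus PRC1-null (without *Dkk1*), PRC2-null minus PRC1-null (without *Dkk1* and *Sfrp5*) and the difference between lines (without *Wif1*) each had 1. A mean count of at least 100 leaves out 4 of the 10 genes by construction, and then the counts of higher genes were 2 with PRC1 lost, 1 with PRC2 lost and 3 with both lost, with 1 for each of those 3 differences. Centring on the median of expressed entries gave 2 for PRC1/2-null minus PRC2-null, where *Axin2* reached 1.01. It turned *Wif1* in PRC2-null minus PRC1-null to -0.0103. Taking off chromosome shifts left 1 for PRC1/2-null minus PRC1-null, without *Axin2*, and turned PRC2-null minus PRC1-null to 0.0382 for *Sfrp1* and -0.343 for *Axin2*, none of them called in either form. With the common control taken out of the variance, PRC1/2-null minus PRC1-null had 3, with *Dkk2* added. The alternatives with unshrunken values and with a mean count of at least 10 left every count within 1.5 times its value.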

Other observations

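The genes in this section were named after their values were seen. *Cdx1*, a caudal-type homeobox gene that Wnt signalling induces in the embryo, rose where PRC1 alone was lost. Its log2 fold change was 2.17 ± 0.26 (SE, DESeq2 adjusted p = 1.3e-15) in PRC1-null cells, -0.77 (adjusted p = 0.0115) in PRC2-null cells and -0.20 (adjusted p = 0.532) in PRC1/2-null cells. PRC1/2-null minus PRC1-null was -2.37 ± 0.37 (SE, adjusted p = 3.36e-09). The change of *Cdx1* with TAM was lower in Eed-/- cells than in cells with *Eed* by a difference of -1.60 (adjusted p = 0.012). *Cdx2* had its highest value in PRC1/2-null cells, where it was 2.78 (adjusted p = 2.91e-06) above PRC1-null cells.

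*Wnt5b* followed TAM in both lines. It had 1.26 in PRC1-null and 1.26 in PRC1/2-null cells and -0.55 (adjusted p = 0.00992) in PRC2-null cells, and PRC1/2-null minus PRC2-null was 1.81 ± 0.27 (SE, adjusted p = 2.56e-09). *Frzb*, an SFRP-family antagonist also called *Sfrp3*, had 1.47 with PRC1 lost, 4.97 with PRC2 lost and 4.53 with both lost, and PRC2-null minus PRC1-null was 3.50 ± 0.54 (SE, adjusted p = 3.77e-09). The summed implied mean of the primitive endoderm markers was also highest in the 2 groups that lack EED, and their part in the value of *Frzb* was not tested. *Sfrp4* had -2.33 (adjusted p = 3.32e-11) in PRC1/2-null cells and was lower there than in PRC2-null cells, with a difference of -1.44 (adjusted p = 0.0142).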
